A study of Solanum lycopersicum with 6 samples.

Results

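The photoreceptor genes of tomato (*Solanum lycopersicum*) are described here in the pericarp, the flesh of the fruit. The set holds 10 genes, fixed by gene identifier and not by a threshold on their values: the 5 phytochromes *PHYA*, *PHYB1*, *PHYB2*, *PHYE* and *PHYF*, the 4 cryptochromes *CRY1a*, *CRY1b*, *CRY2* and *CRY3*, and the UV-B receptor *UVR8*. The genes were chosen with earlier results of these data known. All 10 were among the 23709 genes listed in at least 1 library. RNA was sequenced from pericarp harvested 38 days post anthesis, in 3 wild-type libraries and 3 libraries of the genotype SlDof1 RNAi. In RNAi, double-stranded RNA silences a gene of matching sequence; Dof proteins are zinc-finger transcription factors of plants. The titles of the RNAi libraries carry the name SlDof-8; the labels give neither the cultivar, the promoter of the silencing construct, nor whether the 3 libraries come from separate plants. The labels tie SlDof1 to no gene identifier, so its silencing was not checked here, and the libraries are called RNAi-labelled.

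Phytochromes carry a bilin chromophore and switch between forms that absorb red and far-red light. Cryptochromes bind a flavin and absorb blue and UV-A light, and UVR8 senses UV-B through its own tryptophans. In light, phytochromes, UVR8, CRY1 and CRY2 hold back the COP1 and DET1 ubiquitin ligase machinery, so that transcription factors such as HY5 accumulate. In tomato fruit, red light acting through phytochromes promotes lycopene accumulation, and tomato plants with too little DET1 or DDB1 activity bear fruit rich in pigment.

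Total expected counts were 9608643 to 10002358 per library. Wild-type library 1 and RNAi-labelled library 3 lay apart from the other 4 libraries on the second principal component of log2 CPM (30.4% of the variance; 32.6 and 32.2, against -18.3 to -13.7), whereas the first (51.5%) separated the groups. Calls that rest on them are given with and without them. Both were picked from the spread of these same data, so a smaller p without them lends a call no further support. The share of all tested genes with an edgeR adjusted p under 0.05 was 12.3% with them and 22% without them. Values listed below for a group are those of its libraries 1, 2 and 3, in that order. Of 4 ripening markers, whose summed level was 13300 to 16700 FPKM in wild-type and 10200 to 12200 FPKM in RNAi-labelled libraries, 3 fell by edgeR's quasi-likelihood test (*PG2a*, *RIN* and *PSY1*) and *ACO1* did not pass. FPKM is the number of fragments scaled by gene length and library total, and can be compared between genes. The 3 epidermis markers (*CER6*, *CD2* and *GPAT6*) summed to 58.6 to 66.4 FPKM in wild-type and 87 to 108 FPKM in RNAi-labelled libraries, and *CD2* and *GPAT6* rose. The part of ripening stage and of epidermal cells in the results below was not tested. The ovule and seed markers summed to at most 2.46 FPKM, with *AGL11* listed in no library, and the pollen marker *LAT52* was listed in none.

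In wild-type pericarp the most abundant of the 10 transcripts were *CRY2*, *CRY1a* and *PHYA*, and the least abundant was *PHYE*. *CRY2* lay at 25.8 ± 3.45 FPKM (SD, n = 3), above 75.4% of the 22620 genes listed in wild type, whose median was 7.12 FPKM. *CRY1a* followed at 23.6 ± 0.883 FPKM, overlapping *CRY2*, and *PHYA* at 19.5 ± 0.683 FPKM, below both in all 3 libraries. A middle group sat near the median of listed genes: *PHYB2* at 8.93 ± 0.673, *CRY3* at 8.8 ± 1.09 and *PHYB1* at 7.67 ± 0.421 FPKM. *PHYB2* overlapped *CRY3*, and *CRY3* overlapped *PHYB1*. *CRY1b* lay at 6.14 ± 0.101 and *PHYF* at 4.86 ± 0.167 FPKM, with *UVR8* between them and too variable to be ordered against either. *PHYE* lay at 0.817 ± 0.169 FPKM, above only 24.2% of listed genes.

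In RNAi-labelled pericarp *CRY1a* led at 36 ± 1.94 FPKM (SD, n = 3) and did not overlap *CRY2*, which came next at 28.3 ± 2.8 FPKM. *PHYA* was again next in order. *CRY1b* stood at rank 4 with 12.8 ± 0.205 FPKM, after rank 7 in wild type, and did not overlap *PHYA* above it or *CRY3* below it. *PHYB2* moved from rank 4 to rank 7, below *PHYB1*, whose range it overlapped. *PHYE* again came last. In all, 6 of the 10 genes held another rank by mean FPKM than in wild type. They include *PHYF* and *UVR8*, whose ranges overlapped in both groups, and *CRY1a* and *CRY2*, whose ranges overlapped in wild type.

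**Figure D1:**
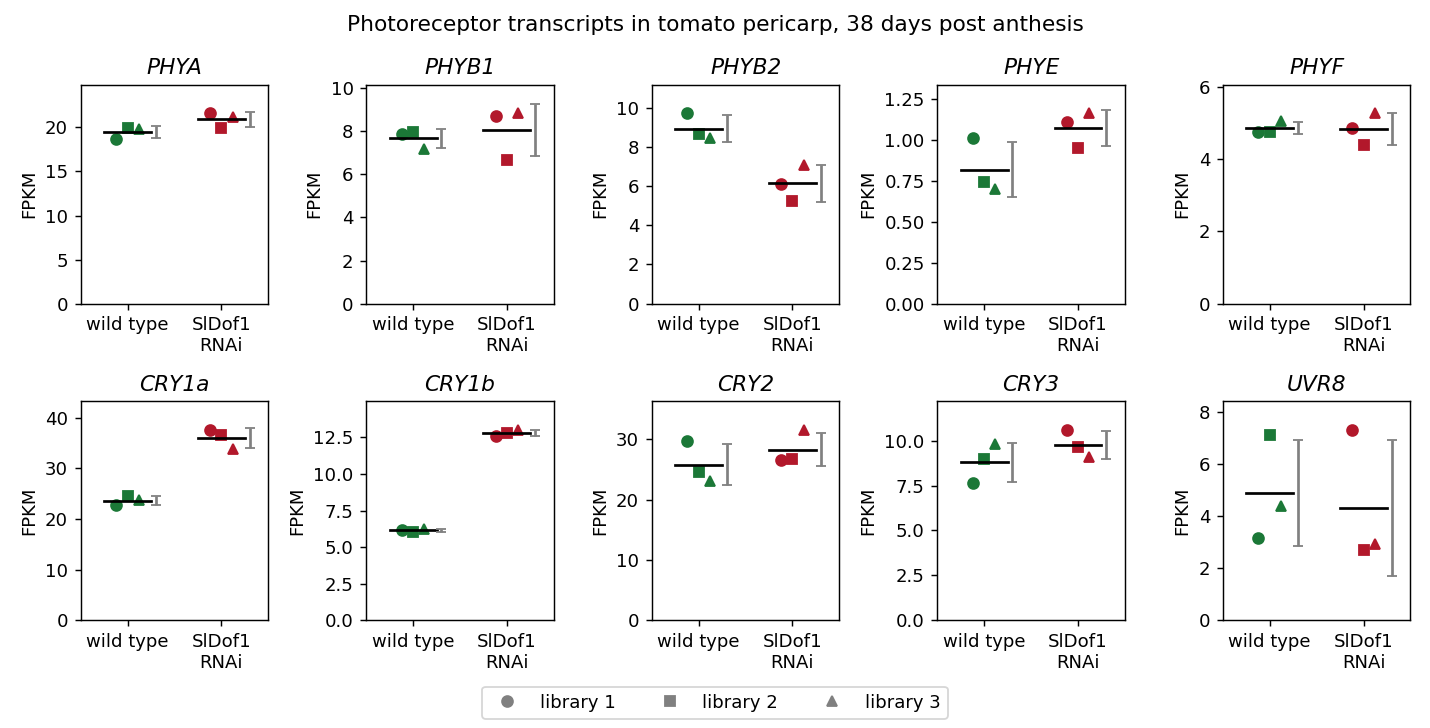
FPKM of each photoreceptor gene by library (vertical axes, linear and from 0, each on its own scale), with 3 wild-type and 3 RNAi-labelled libraries; marker shapes give the library number, black lines the group mean and grey bars the SD. The groups stand clear of each other for *PHYB2*, *CRY1a* and *CRY1b*, and overlap for the other 7 genes.

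Setting RNAi-labelled beside wild-type fruit asks whether the photoreceptor make-up of the pericarp differs between them. The cryptochrome genes *CRY1a* and *CRY1b* rose in RNAi-labelled fruit, by 1.47-fold and 2.01-fold, and the phytochrome gene *PHYB2* fell, by 1.51-fold. The other 6 tested genes, *PHYA*, *PHYB1*, *PHYE*, *PHYF*, *CRY2* and *CRY3*, did not pass the test, and *UVR8* had too few counts to be tested. So 3 of 9 tested members were called by edgeR's quasi-likelihood test at a threshold of 0.05, with p-values adjusted by Benjamini-Hochberg across every gene tested. Among all 16737 tested genes 12.3% were called, 6.54% higher and 5.8% lower. For the same 3 members the FPKM ranges of wild-type and RNAi-labelled libraries were separate, as they were for 31% of all tested genes. The median log2 fold change was 0.081 over the 9 tested members and -0.01 over all tested genes. Whether the members differ from other genes in either respect was not tested. In bulk tissue, fewer cells of a type and less RNA per cell cannot be told apart.

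Among the cryptochromes, *CRY1b* (Solyc12g057040.1), a second CRY1-type receptor of tomato, changed most. Its FPKM was 6.16, 6.03 and 6.23 in wild type and 12.6, 12.8 and 13 in RNAi-labelled fruit. The spread within either group was far smaller than the distance between the groups. The log2 fold change was 1 ± 0.10 SE (95% interval 0.77 to 1.24, edgeR adjusted p = 0.000707), larger in size than that of 95.3% of tested genes. It passed the test in every alternative run, at 0.95 to 1.05 on the log2 scale (adjusted p at most 0.0133).

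*CRY1a* (Solyc04g074180.2) encodes the main tomato CRY1, known for blue-light control of seedling growth and pigment. Its FPKM was 22.7, 24.5 and 23.7 in wild type and 37.5, 36.6 and 33.8 in RNAi-labelled fruit. All RNAi-labelled libraries lay above all wild-type ones, and the lowest value of each group came from a library that stood apart. The log2 fold change was 0.55 ± 0.09 SE (95% interval 0.35 to 0.75, edgeR adjusted p = 0.0053). It was 0.57 without the 2 libraries that stood apart (edgeR adjusted p = 7.17e-05), and it passed whichever single library was left out (adjusted p up to 0.0305).

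*CRY2* (Solyc09g090100.2), whose overexpression in tomato is known to raise fruit flavonoids and lycopene, stood at 29.7, 24.6 and 23.1 FPKM in wild type. In RNAi-labelled fruit it stood at 26.6, 26.8 and 31.5 FPKM. The groups overlapped, and the highest value of each group came from a library that stood apart. The log2 fold change of 0.08 did not pass (95% interval -0.18 to 0.34, edgeR adjusted p = 0.73), nor did the 0.12 found without those 2 libraries (adjusted p = 0.33). *CRY3* (Solyc08g074270.2), of the CRY-DASH type that is related to DNA photolyases, ranged from 7.63 to 9.79 FPKM in wild type and from 9.07 to 10.6 FPKM in RNAi-labelled fruit. Its log2 fold change of 0.09 did not pass either (95% interval -0.21 to 0.40, edgeR adjusted p = 0.732).

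Of the phytochromes, *PHYB2* (Solyc05g053410.2) was the member that fell. It is one of a pair of tomato PHYB-type receptors, light-stable phytochromes that respond to red light and shade. Its FPKM was 9.7, 8.66 and 8.44 in wild type and 6.09, 5.23 and 7.08 in RNAi-labelled fruit. Every RNAi-labelled value lay below every wild-type value, with the highest of each group in a library that stood apart. The log2 fold change was -0.60 ± 0.12 SE (95% interval -0.88 to -0.32, edgeR adjusted p = 0.0156). This call was near the threshold: it did not pass without wild-type library 2 (adjusted p = 0.052), without RNAi-labelled library 1 (adjusted p = 0.0688) or 2 (adjusted p = 0.0585), or by limma on log2(FPKM + 1) (adjusted p = 0.0612). Without both libraries that stood apart it was -0.64 (edgeR adjusted p = 0.000687).

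The other PHYB-type gene, *PHYB1* (Solyc01g059870.2), stood at 7.87, 7.96 and 7.19 FPKM in wild type and at 8.69, 6.65 and 8.83 FPKM in RNAi-labelled fruit. The RNAi-labelled values lay on both sides of the wild-type ones. The log2 fold change of 0.02 did not pass (95% interval -0.27 to 0.30, edgeR adjusted p = 0.961), and its sign changed among the alternatives. *PHYA* (Solyc10g044670.1), the light-labile phytochrome that senses far-red and very weak light, stood at 18.7, 19.9 and 19.8 FPKM in wild type and 21.6, 19.9 and 21.2 FPKM in RNAi-labelled fruit. The groups met at 19.9 FPKM. Its log2 fold change was 0.05 (95% interval -0.14 to 0.24, edgeR adjusted p = 0.793).

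*PHYF* (Solyc07g045480.2), related to *PHYC* of Arabidopsis, ranged from 4.76 to 5.05 FPKM in wild type and from 4.38 to 5.26 FPKM in RNAi-labelled fruit, so that the wild-type range lay inside the other. Its log2 fold change was -0.06 (95% interval -0.31 to 0.19, edgeR adjusted p = 0.789). *PHYE* (Solyc02g071260.2), a light-stable phytochrome related to PHYB, rested on few reads: wild type had 39, 29 and 28 counts, RNAi-labelled fruit 44, 38 and 45. In FPKM these are 1.01, 0.74 and 0.7, and 1.11, 0.95 and 1.16. The groups overlapped through wild-type library 1. The log2 fold change of 0.35 did not pass (95% interval -0.11 to 0.81, edgeR adjusted p = 0.334), and the interval is the widest of the 9 tested members.

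*UVR8* could hardly be measured. The listed gene, Solyc05g018630.1, is only 219 bases long, shorter than the coding sequence of a full UVR8 protein as known from Arabidopsis. Wild type had expected counts of 5.49, 11.5 and 7.15, RNAi-labelled fruit of 11.4, 4.45 and 5.08. They are fractions, as arises where reads are shared with another gene, whereas the counts of the other 9 members were whole in every library (within 0.005). The FPKM ranges, 3.15 to 7.1 and 2.69 to 7.3, overlapped almost fully. Fitted without a filter on low counts, the log2 fold change was -0.24 with a 95% interval of -1.38 to 0.89 (edgeR adjusted p = 0.831), which leaves a wide range of changes undetectable at this depth.

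**Figure D2:**
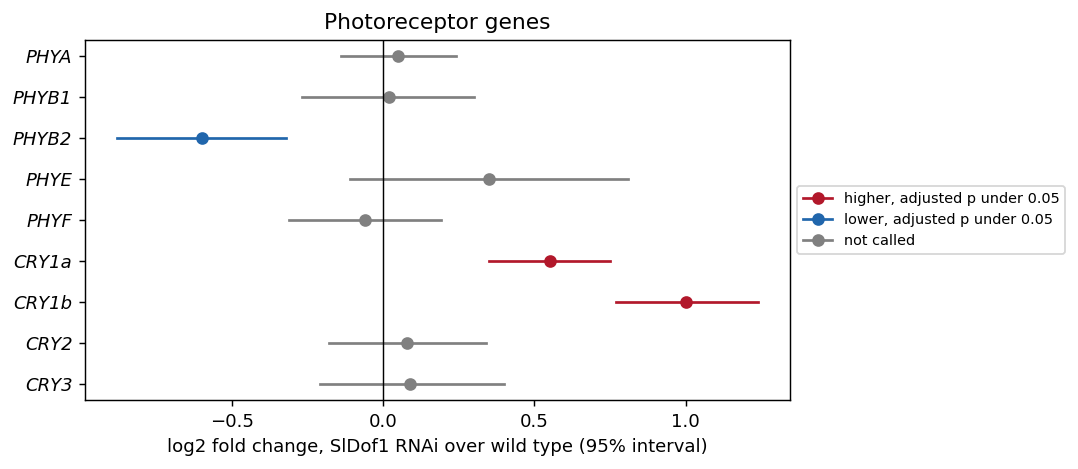
Log2 fold change of the 9 tested photoreceptor genes, RNAi-labelled over wild type (points), with 95% intervals (lines) from edgeR's quasi-likelihood fit; red marks genes called higher, blue called lower and grey not called. *CRY1b* lies at 1, *CRY1a* at 0.55 and *PHYB2* at -0.60, and the intervals of the other 6 genes cross 0.

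The summed level of the phytochromes was 41.8 ± 0.482 FPKM in wild-type and 41 ± 3.43 FPKM in RNAi-labelled fruit (SD, n = 3), with overlapping groups. The summed level of the cryptochromes was 66.1, 64.1 and 62.8 FPKM in wild type and 87.3, 85.8 and 87.4 FPKM in RNAi-labelled fruit. The groups did not overlap in this sum. The ratio of summed cryptochrome to summed phytochrome FPKM was 1.54 ± 0.0286 in wild type and 2.13 ± 0.162 in RNAi-labelled fruit. These sums and the shares below are descriptions and were not tested. Shares within a family depend on each other, so a share can fall while the gene's own level does not.

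Within the phytochromes, *PHYA* held the largest share of the summed FPKM in all 6 libraries, 46.7% ± 1.93 in wild type and 51.1% ± 2.44 in RNAi-labelled fruit (SD, n = 3). The share of *PHYB2* was 23.1%, 20.6% and 20.5% in wild type and 14.4%, 14.1% and 16.3% in RNAi-labelled fruit. That is 6.47 percentage points less on average, with no overlap, and *PHYB2* changed places with *PHYB1* in the order of mean shares. *PHYB1* held 18.4% ± 0.802 and 19.6% ± 1.43, *PHYF* 11.6% ± 0.539 and 11.8% ± 0.287. *PHYE* held the smallest share, 1.95% ± 0.39 and 2.62% ± 0.0515.

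Within the cryptochromes, the share of *CRY1b* was 9.31%, 9.41% and 9.92% in wild type and 14.4%, 14.9% and 14.9% in RNAi-labelled fruit. It differed by 5.2 percentage points on average, many times the spread within a group. *CRY1a* went from 36.8% ± 2.11 to 41.4% ± 2.4 of the summed FPKM (SD, n = 3), and *CRY2* from 40% ± 4.27 to 32.6% ± 3.04. The groups did not overlap for either, although RNAi-labelled library 3, at 38.7% for *CRY1a* and 36.1% for *CRY2*, lay close to wild-type libraries 2 and 3. The share of *CRY3*, 13.7% ± 2.05 and 11.2% ± 0.876, overlapped between the groups. The mean level of *CRY2* itself was not lower, at 25.8 FPKM in wild type and 28.3 FPKM in RNAi-labelled fruit.

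**Figure D3:**
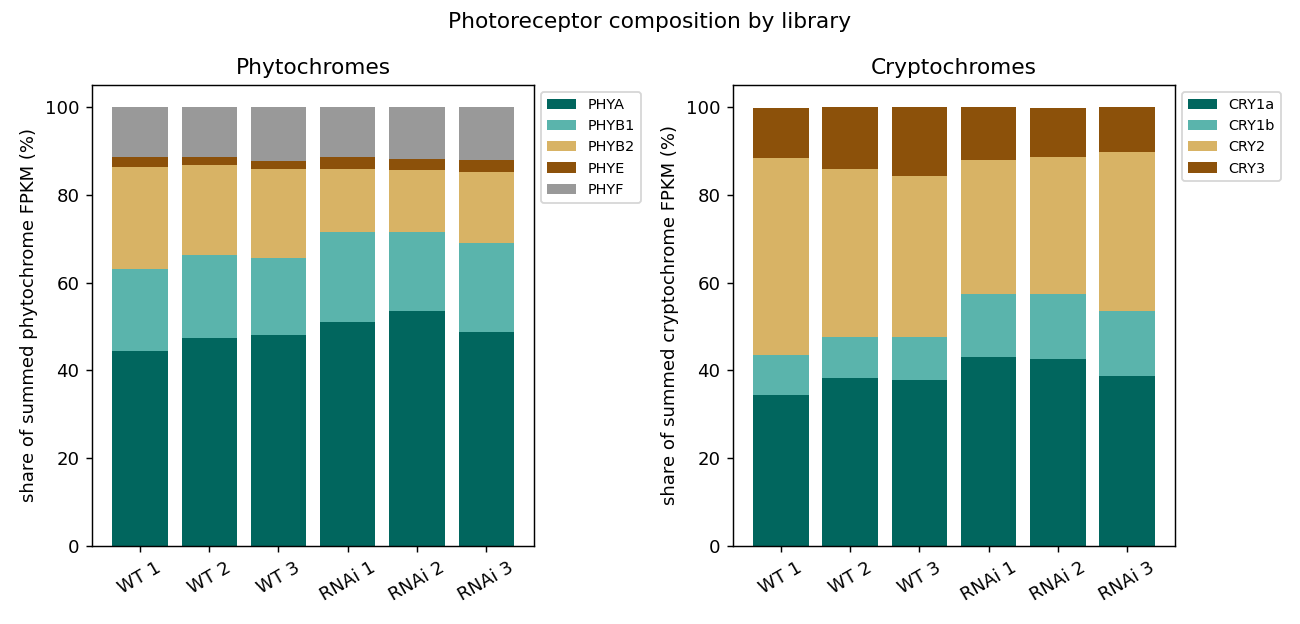
Share of each gene in the summed FPKM of the 5 phytochromes (left) and the 4 cryptochromes (right), in percent, for each library; stacked bars start at 0. The *PHYB2* band is narrower in RNAi-labelled libraries (14.1% to 16.3%) than in wild type (20.5% to 23.1%), and the *CRY1b* band is wider (14.4% to 14.9% against 9.31% to 9.92%).

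Ratios within a library show 3 differences between related receptors directly; the pairs were picked after the values were seen. The FPKM ratio of *PHYB2* to *PHYB1* was 1.23, 1.09 and 1.17 in wild type and 0.701, 0.786 and 0.802 in RNAi-labelled fruit. *PHYB2* was thus the more abundant of the pair in all 3 wild-type libraries and the less abundant in all 3 RNAi-labelled ones. The ratio of *CRY1a* to *CRY2* was 0.766, 0.994 and 1.03 in wild type and 1.41, 1.36 and 1.07 in RNAi-labelled fruit. Here the groups came close, at 1.03 and 1.07. The ratio of *CRY1b* to *CRY1a* was 0.271, 0.246 and 0.263 in wild type and 0.336, 0.35 and 0.385 in RNAi-labelled fruit. The log2 ratios differed by -0.61, 0.47 and 0.46 between the groups. Each gave p = 0.1 in a two-sided exact permutation test (0.1 after adjustment over the 3 ratios), the smallest p that 3 libraries against 3 allow. The pairs were picked with their values known and their groups did not overlap, so this p was fixed in advance. It lends the differences no support, and the adjustment covers only the pairs picked.

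**Figure D4:**
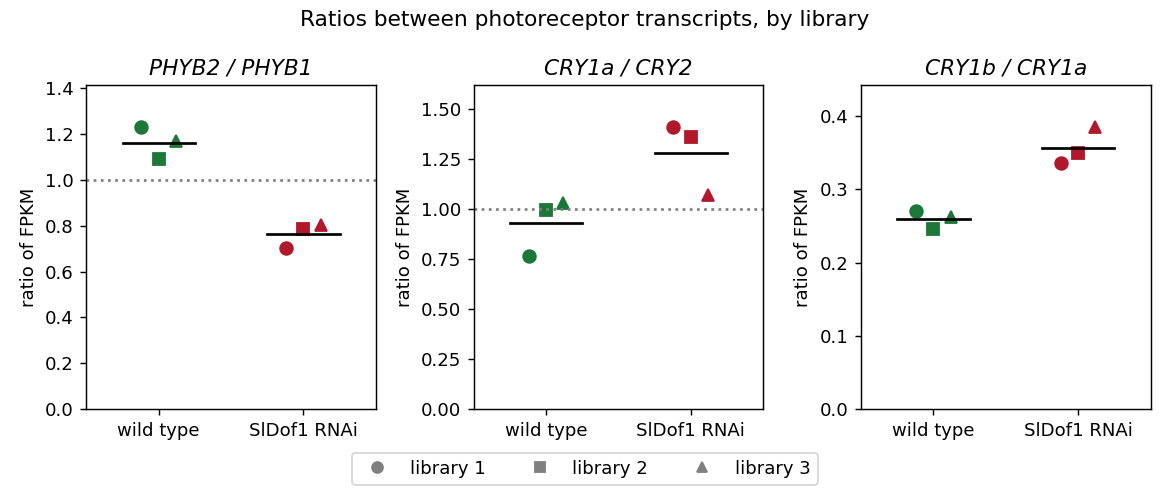
FPKM ratio of *PHYB2* to *PHYB1*, *CRY1a* to *CRY2* and *CRY1b* to *CRY1a* in each library (vertical axes from 0); black lines are group means and the dotted line marks equal levels. The *PHYB2* to *PHYB1* ratio lies above 1 in the 3 wild-type libraries and below 1 in the 3 RNAi-labelled ones.

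Beyond the receptors, 23 other genes of light signalling were examined, of which 19 had enough counts. In RNAi-labelled fruit 2 of the 19 rose (*PHOT2* and *MYB12*), 4 fell (*HY5*, *COP1*, *PIF3* and *CHS2*) and 13 did not pass edgeR's test, beside 12.3% called among all tested genes (6.54% higher and 5.8% lower). The median log2 fold change was -0.156, beside -0.01 over all tested genes. Without the 2 libraries that stood apart, 5 rose and 8 fell, beside 22% called among all genes of that fit (11.4% higher and 10.5% lower). When any 1 library was left out, 1 or 2 rose and 1 to 3 fell.

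The phytochrome chromophore is made by heme oxygenase (*YG2*) and phytochromobilin synthase (*AUREA*). *YG2* lay at 55.8 to 61.03 FPKM in wild type and 54.8 to 57.6 FPKM in RNAi-labelled fruit (log2 fold change -0.08, edgeR adjusted p = 0.633). *AUREA* lay far lower, at 1.98 to 2.69 and 2.05 to 2.3 FPKM (log2 fold change -0.10, edgeR adjusted p = 0.824). Neither step passed the test. Of the phototropins, the blue-light receptors of phototropism and chloroplast movement, *PHOT2* rose from 1.54, 1.55 and 1.86 FPKM in wild type to 3.03, 3 and 3.01 FPKM in RNAi-labelled fruit. Its log2 fold change was 0.81 ± 0.14 SE (edgeR adjusted p = 0.00828). *PHOT1*, at 40.3 to 42.8 and 32.3 to 40.1 FPKM, did not pass (log2 fold change -0.24, edgeR adjusted p = 0.153).

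Among the ubiquitin ligase components that repress light responses, *COP1* stood at 27, 24.8 and 22.1 FPKM in wild type and at 18.8, 17.7 and 21.1 FPKM in RNAi-labelled fruit. Its log2 fold change was -0.41 ± 0.11 SE (edgeR adjusted p = 0.037). Of the fits that left out 1 library, only that without RNAi-labelled library 3 called it (adjusted p up to 0.136 in the others), and the fit without both libraries that stood apart gave -0.41 (adjusted p = 0.00621). *DDB1* (log2 fold change -0.32, edgeR adjusted p = 0.0538) did not pass in the 6 libraries, nor in any fit that left out 1 library. Without both libraries that stood apart it passed (-0.35, edgeR adjusted p = 0.00796), in a fit that called 22% of all genes. *DET1* lay at 6.68 to 9.16 and 7.55 to 8.06 FPKM (log2 fold change -0.09, edgeR adjusted p = 0.737).

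*HY5*, the bZIP factor that activates light-induced genes and is a target of COP1, stood at 54.7, 48 and 48.2 FPKM in wild type and at 37.5, 35.1 and 41.8 FPKM in RNAi-labelled fruit. The groups did not overlap, and the log2 fold change was -0.46 ± 0.10 SE (edgeR adjusted p = 0.0246). As for *COP1*, the only fit with 1 library left out that called it was that without RNAi-labelled library 3 (adjusted p up to 0.106 in the others). Without both libraries that stood apart it was -0.45 (edgeR adjusted p = 0.00309). Of the phytochrome-interacting factors, basic helix-loop-helix proteins that phytochromes bind and remove in light, *PIF3* fell with a log2 fold change of -0.39 (edgeR adjusted p = 0.0432), and of the fits with 1 library left out only that lacking wild-type library 1 called it (p after adjustment up to 0.163 in the others). Lacking both libraries that stood apart, the fit gave -0.41 for *PIF3* (edgeR adjusted p = 0.0121). *PIF8a* had a larger fitted change, 0.76, that did not pass (edgeR adjusted p = 0.0553).

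Among genes that light induces, the chalcone synthase gene *CHS2*, of the first step of flavonoid synthesis, fell from 44.3, 53.2 and 51.6 FPKM in wild type to 17.7, 20 and 16.3 FPKM in RNAi-labelled fruit. Its log2 fold change was -1.52 ± 0.12 SE (edgeR adjusted p = 0.000179), and it passed in every alternative. The other chalcone synthase gene, *CHS1*, lay at 145 to 209 and 129 to 176 FPKM and did not pass (log2 fold change -0.27, edgeR adjusted p = 0.398). *MYB12*, a regulator of flavonol synthesis in the fruit, rose with a log2 fold change of 0.69 ± 0.19 SE (edgeR adjusted p = 0.0476). Again only the fit lacking wild-type library 1 called it among those with 1 library left out (p after adjustment up to 0.168 in the others), and the fit lacking both libraries that stood apart gave 0.74 (edgeR adjusted p = 0.000677).

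**Figure D5:**
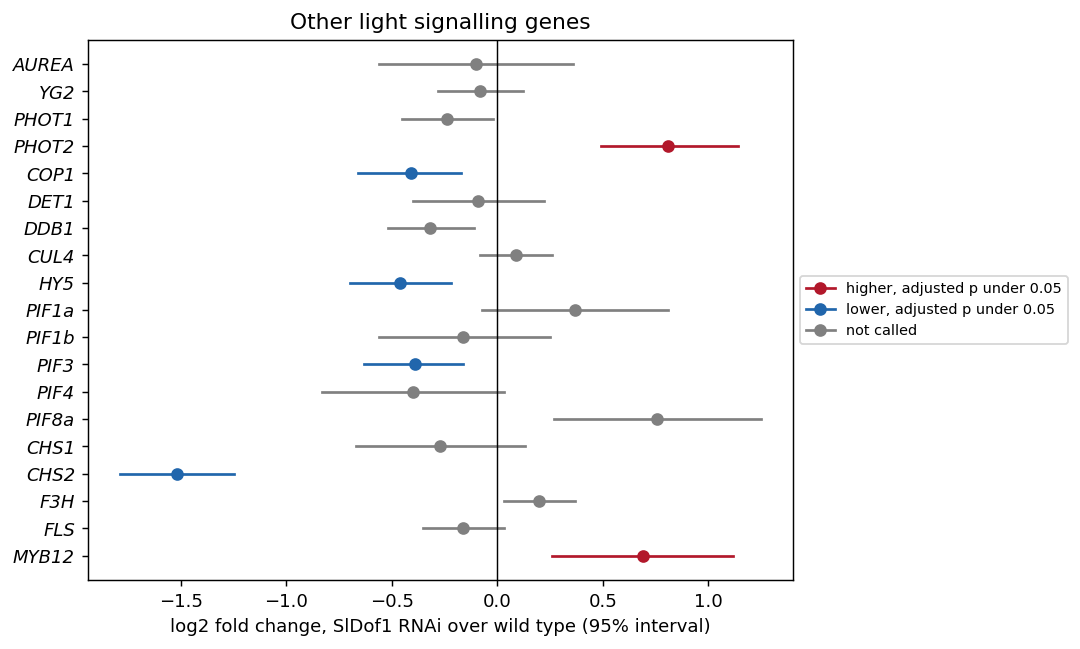
Log2 fold change of the 19 tested light signalling genes other than phytochromes, cryptochromes and *UVR8*, RNAi-labelled over wild type (points), with 95% intervals (lines) from edgeR's quasi-likelihood fit; red marks called higher, blue called lower and grey not called. *CHS2* lies lowest at -1.52 and *PHOT2* highest at 0.81.

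*CRY1a* had the highest mean FPKM of the 10 phytochrome, cryptochrome and *UVR8* genes over the 6 libraries, at 29.8. Of the 19 light signalling genes, those whose log2 CPM profile, centred on its own mean, lay nearest to that of *CRY1a* were *PHOT2* at a Euclidean distance of 0.39, *F3H* at 0.49 and *PIF1a* at 0.5. *CHS2* lay farthest, at 2.54. With 6 libraries in 2 groups, such a distance reads both the group difference and the spread within groups. *F3H*, with a log2 fold change of 0.20, lay nearer to *CRY1a* (0.55) than *MYB12* did, which had 0.69 and a distance of 0.73.

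The photoreceptors followed the libraries that stood apart about as often as all tested genes did. *PHYB2*, *PHYE* and *CRY2* had their highest log2 CPM of each group in wild-type library 1 and RNAi-labelled library 3, and *CRY1a* and *CRY3* their lowest. These are 5 of 9 tested members, beside 56.1% of all tested genes (27.7% highest in both and 28.4% lowest in both). *CRY1b*, *PHYA*, *PHYB1* and *PHYF* showed neither pattern.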

How the data were processed

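Each library has 1 file with, per the file headers, an expected count, an FPKM value and a length per gene. The authors' deposited expected counts are estimates per gene, of which 94.5% to 94.9% were whole within 0.005, and their FPKM values are scaled by length and library total. Aligner, counting program, strand and build: not given in the sources used here. Genes absent from a file count as 0.

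Expected counts were rounded, filtered with filterByExpr (at least 10 counts at median library size and 15 over all libraries), scaled by TMM and tested with edgeR's quasi-likelihood test over 16737 genes. P-values measure the spread between these libraries only. Standard errors are the size of the log2 fold change over the root of F, and intervals use the fit's own degrees of freedom. CPM was taken on a log2 scale with a prior count of 2, and shares from the deposited FPKM. The edgeR fit was tested on simulated data, with 50 genes changed at each fold. It recovered 42% of the 1.5-fold and 88% of the 2-fold changes. Changes of 1.5-fold were thus missed more often than found in this simulation. Its changed genes were drawn at random, and its libraries lacked the pattern shared by those that stood apart. The rate for the members themselves may differ.

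The members and lists were chosen with earlier results of these data known. All members are named; of the other light signalling genes, those called and 6 fixed by role are, as are the 3 nearest to *CRY1a* in profile, and *PHOT1*, *PIF8a* and *CHS1* were named after their values were seen. Names beyond the members come from memory. Of 45 pairs of name and identifier, 33 had a RefSeq gene with that symbol or synonym (assembly SLM_r2.1; *YG2* was matched by hand to *HO1*) on the chromosome named in the identifier, and 10 had none, *UVR8* and the PIF genes among them. The other 2, *BBX20* and *E8*, lay elsewhere and were left out. Alternatives used DESeq2 1.42.0 and limma 3.58.1 (on log2(FPKM + 1) or log2(FPKM + 0.1), mean FPKM of at least 0.5), beside edgeR 4.0.16 in R 4.3.3. Tables and plots were made with matplotlib 3.10.9 under Python 3.11.15.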

Additional observations from a re-analysis of the deposited data

How the results depend on the processing

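The rises of *CRY1a* and *CRY1b* kept their direction and the fall of *PHYB2* its own in all 13 alternatives. The lower member was lost (0 called) with limma on log2(FPKM + 1) and on log2(FPKM + 0.1), and a replicate block in the edgeR fit left 1 member higher and 0 lower (*CRY1a* adjusted p = 0.0525, *PHYB2* adjusted p = 0.0635). The labels do not state whether the replicate numbers pair the libraries. Deviations from group means correlated at -0.493, 0.279 and -0.521 for numbers 1 to 3, and at 0.696 between the 2 libraries that stood apart. Since the libraries that stood apart shape these values, they cannot settle whether the numbers pair libraries. With the replicate block the light signalling list had 0 higher and 1 lower, and all genes 496 higher and 381 lower. With single libraries left out, 2 members were higher throughout and 0 to 1 lower; the list had 1 to 2 higher and 1 to 3 lower, and all genes 583 to 1126 higher and 481 to 912 lower. Without the 2 libraries that stood apart, the list had 5 higher and 8 lower and all genes 1922 and 1771. Limma gave 1 higher and 2 lower in the list on log2(FPKM + 1), where all genes split into 1174 higher and 682 lower against 1094 and 971 in edgeR, and 1 higher and 1 lower on log2(FPKM + 0.1). With no filter 2 of the list were lower.

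Among the photoreceptor and light signalling genes recomputed singly, signs changed only for 4 that no alternative called. *PHYB1* turned to -0.03 without both libraries that stood apart and, with single libraries left out, spanned -0.04 to 0.13; *CRY3* spanned -0.004 to 0.18, *AUREA* -0.19 to 0.06 and *DET1* -0.20 to 0.01. *DET1* was 0.04 without both libraries. Shares of counts in place of FPKM gave *CRY1b* 3.37 percentage points more in RNAi-labelled fruit. Ordered by mean CPM, which is not scaled by gene length, 7 members held another rank than in wild type. *CRY1a* then led in both groups, at 76.7 CPM in wild type and 117 CPM in RNAi-labelled fruit. *CRY1b* moved from rank 8 to rank 6 by CPM, where its range overlapped those of *PHYB2* and *PHYF*. With single libraries left out, the differences in share spanned 3.19 to 5.62 points for *PHYA*, 0.732 to 2.03 for *PHYB1*, -7.14 to -5.63 for *PHYB2*, 0.534 to 0.886 for *PHYE*, 0.00602 to 0.473 for *PHYF*, 3.45 to 6.04 for *CRY1a*, 5.08 to 5.38 for *CRY1b*, -9.13 to -4.97 for *CRY2* and -3.56 to -1.53 for *CRY3*. Where a call or share moved, the cause was not tested. Few reads limit *UVR8*, *PHYE* and *AUREA*.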
